A study of Mus musculus with 12 samples.

Results

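The 10 genes described here are transcripts of connective tissue and mesothelium, measured in cultures of thioglycolate-elicited peritoneal macrophages (PMφs). They were taken by name as rows of the deposited table, 10 of its 43278 gene symbols, and they had been chosen because their levels in these same libraries were already known. Of the 10, 5 genes (Col1a1, Col1a2, Col3a1, Dcn and Sparc) encode proteins of the extracellular matrix, and 5 (Upk3b, Msln, Krt8, Krt18 and Krt19) are genes of mesothelial surface proteins and simple-epithelial keratins. The table holds 12 libraries, 3 for each of 4 conditions. Beside untreated control PMφs these were PMφs given 100 µg/ml human medium oxidized LDL (oxLDL) for 24 h, PMφs given 10 ng/ml ultrapure LPS, and PMφs given oxLDL and then LPS (oxLDL+LPS). All 12 came from wild-type mice, C57BL/6J in the study's methods, and all 4 groups share the injection of 4% thioglycolate, the lavage 4 days later and the use of adherent cells after 18 h in DMEM with serum. The duration of LPS treatment of these libraries is not given in the sources used here. The methods describe cells of male and female littermates that were pooled before they were split into the conditions, so that a library is a pool of mice, and adherence is the one selection step that they name. The labels number the libraries of each group 1 to 3. In fits without the number as a block, p-values measure the spread between these pools. With the number as a block, they measure the spread that is left after differences between the numbers are taken out.

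Mesothelium is the single layer of flat cells that lines the peritoneal cavity, and it has features of an epithelium, including simple keratins, beside a mesodermal origin. Below it lie fibroblasts, which secrete fibrillar collagens together with small proteoglycans and matricellular proteins. A lavage of the cavity can carry along detached mesothelial cells and fibroblasts, and both cell types attach to culture plastic, as macrophages do. Macrophages are defined by another set of genes, among them Lyz2 for lysozyme and Csf1r for the receptor of the growth factor M-CSF.

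The values are normalized counts, which look like read counts over exons that were scaled by a single factor in each library and then rounded. A library summed to between 17152972 and 17709731 without LPS and to between 22071853 and 26384551 with LPS, and its spacing implied 16725735 to 26178428 reads. All 10 macrophage markers listed here passed the filter on low values, with a summed normalized count of 236976 to 353988 per library, which matches the labelled cell type. The replicate numbers did not stand for 1 kind of pool throughout. The RNA of X inactivation, Xist, had a normalized count of 1 in control number 1 and 2 in oxLDL number 1, against 6331 in LPS number 1 and 3812 in oxLDL+LPS number 1. The summed counts of 4 Y-linked genes were 3138 and 3009 in the first pair and 1023 and 1004 in the second. Number 2 libraries had Xist at 5933 to 7751 with 0 to 2 Y-linked counts, and number 3 libraries held both kinds. By these genes the number 1 libraries with and without LPS differed in their mixture of male and female RNA, and comparisons across LPS that use the number as a block are given below with and without number 1.

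Promoter sequences of 4 of the genes are shown because the collagens and Sparc moved together over the libraries while Upk3b, a mesothelial gene, was the member with the lowest levels in the oxLDL+LPS group relative to both of its comparison groups. They are the 250 bases before the transcript start in RefSeq on build GRCm38.p6, written 5′ to 3′ on the gene's strand, with capitals for matches on either strand to the TATA letters TATAA, to a CCAAT box, to a GC box spelled GGGCGG, or to an AP-1 or NF-κB site. The promoter of Col1a2 lies at chr6:4505368-4505617 on the plus strand, that of Col3a1 at chr1:45311288-45311537 on the plus strand, that of Sparc at chr11:55420081-55420330 on the minus strand and that of Upk3b at chr5:136038246-136038495 on the plus strand. The windows of Col1a2 and Sparc lie inside the gene spans given below, which come from another annotation and begin further upstream for these genes.
Col1a2: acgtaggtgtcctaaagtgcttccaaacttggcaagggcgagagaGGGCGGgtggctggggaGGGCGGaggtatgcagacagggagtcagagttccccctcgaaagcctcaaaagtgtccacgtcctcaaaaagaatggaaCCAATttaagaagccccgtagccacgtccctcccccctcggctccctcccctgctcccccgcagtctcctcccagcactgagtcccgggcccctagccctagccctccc
Col3a1: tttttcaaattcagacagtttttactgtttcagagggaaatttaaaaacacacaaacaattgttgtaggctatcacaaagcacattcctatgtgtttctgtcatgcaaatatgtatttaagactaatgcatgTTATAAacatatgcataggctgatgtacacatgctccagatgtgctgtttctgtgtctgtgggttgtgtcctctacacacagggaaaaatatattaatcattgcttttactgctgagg
Sparc: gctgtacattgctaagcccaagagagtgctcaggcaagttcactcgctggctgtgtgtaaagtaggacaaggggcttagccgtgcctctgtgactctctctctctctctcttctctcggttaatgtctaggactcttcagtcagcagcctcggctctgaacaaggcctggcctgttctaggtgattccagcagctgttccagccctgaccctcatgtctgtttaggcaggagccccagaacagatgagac
Upk3b: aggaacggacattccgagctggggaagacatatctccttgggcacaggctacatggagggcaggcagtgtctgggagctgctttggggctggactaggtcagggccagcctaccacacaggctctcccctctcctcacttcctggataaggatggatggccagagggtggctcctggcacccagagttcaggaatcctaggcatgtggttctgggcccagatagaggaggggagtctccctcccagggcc
Col1a2 had 2 GC boxes, which began 205 and 188 bases before the start, and a CCAAT that began 109 bases before it. Col3a1 had TATAA on both strands in overlap, at 118 and 117 bases. Sparc and Upk3b had no match to these letters. Of all 32851 windows of 250 bases in the table, 22.8% held TATAA, 33.8% CCAAT, 32.7% the GC box, 6.75% the AP-1 site and 1.41% the NF-κB site, so the matches seen here are common ones. Windows were also found for Krt8 and Krt18, making 6 of the 10 genes, and not for Col1a1, Dcn, Msln and Krt19.

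Type I collagen transcripts differed several-fold between replicate numbers. Col1a1, the α1 chain of type I collagen (chromosome 11, 94936224 to 94953042, plus strand of GRCm38), had normalized counts of 9735, 6937 and 2054 in control libraries 1, 2 and 3, and of 7470, 5676 and 2193 in oxLDL libraries. The LPS libraries had 12012, 5517 and 1965, and the oxLDL+LPS libraries 6800, 5833 and 1782. In each of the 4 groups the number 1 library was highest and the number 3 library lowest, and the ratio of number 1 to number 3 ran from 3.41 in oxLDL to 6.11 in LPS libraries. Col1a2, which encodes the α2 chain of the same protein (chromosome 6, 4504814 to 4541544, plus strand), had 9278, 6073 and 1898 in control, 7714, 5326 and 1879 in oxLDL, 10339, 5276 and 2039 in LPS, and 5453, 5598 and 1644 in oxLDL+LPS libraries. It kept the order in 3 of 4 groups, and in the oxLDL+LPS group numbers 1 and 2 lay next to each other. The groups overlapped for both genes.

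Col3a1, the chain of type III collagen that is found beside type I in loose connective tissue (chromosome 1, 45311538 to 45349706, plus strand), had 2509, 1904 and 665 in control, 2076, 1438 and 757 in oxLDL, 2882, 1284 and 524 in LPS, and 1893, 1795 and 554 in oxLDL+LPS libraries. Sparc encodes a collagen-binding matricellular protein (chromosome 11, 55394500 to 55423183, minus strand). Its normalized counts were 4798, 3371 and 1366 in control, 4574, 2971 and 1385 in oxLDL, 5948, 3156 and 1274 in LPS, and 3770, 3683 and 1192 in oxLDL+LPS libraries. Sparc was the 1 member of the 10 whose number 1, 2 and 3 libraries did not overlap at all, which 0.423% of the 13465 genes that passed the filter showed.

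Dcn, the small leucine-rich proteoglycan decorin that binds collagen fibrils and TGF-β (chromosome 10, 97479609 to 97518143, plus strand), had 924, 801 and 330 in control, 951, 596 and 378 in oxLDL, 1895, 1074 and 555 in LPS, and 1289, 1182 and 394 in oxLDL+LPS libraries. The means were 685 ± 314 (SD, n = 3) in control, 642 ± 289 in oxLDL, 1175 ± 676 in LPS and 955 ± 489 in oxLDL+LPS libraries. The order of the numbers was 1, 2, 3 in all 4 groups, and within each number the library with LPS was higher than its counterpart without.

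Among the mesothelial genes, Upk3b was the most abundant. It encodes uroplakin 3B, a membrane protein that marks mesothelium (chromosome 5, 136038496 to 136046487, plus strand). Its normalized counts were 262, 152 and 46 in control, 248, 152 and 47 in oxLDL, 272, 94 and 52 in LPS, and 126, 80 and 26 in oxLDL+LPS libraries. The means were 153 ± 108 (SD, n = 3), 149 ± 101, 139 ± 117 and 77.3 ± 50.1 in that order of groups. The number 1 library held 4.85 to 5.7 times the number 3 library in every group, the narrowest range of ratios among the 10 genes on a log scale.

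Msln, the mesothelial surface protein mesothelin (chromosome 17, 25748613 to 25754378, minus strand), was near the floor of the data, with 14, 7 and 2 in control, 11, 8 and 11 in oxLDL, 12, 7 and 8 in LPS, and 13, 3 and 11 in oxLDL+LPS libraries. Those values correspond to 2 to 18 implied reads, and number 1 exceeded number 3 in 3 of 4 groups with a tie in the oxLDL group. Msln was the 1 member whose number 1 and number 3 libraries overlapped. Its near copy Mslnl had a normalized count of 0 or 1, and Upk3bl, the near copy of Upk3b, 0 to 2.

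Krt8 and Krt18 encode the type II and type I keratins that pair in simple epithelia, and Krt19 is a further type I keratin of such epithelia and of mesothelium. Krt8 (chromosome 15, 101996698 to 102004482, minus strand) had 36, 34 and 32 in control, 38, 25 and 18 in oxLDL, 37, 18 and 11 in LPS, and 43, 21 and 15 in oxLDL+LPS libraries. The control libraries were alike and the other groups were spread out, since the number 1 libraries stayed at 36 to 43 while those of numbers 2 and 3 ran from 11 to 34. An annotated non-coding gene, Gm36026, overlaps exons of Krt8 on the other strand, and whether counting used the strand is not stated. Krt18 (chromosome 15, 102028180 to 102032027, plus strand) had 12, 14 and 5 in control, 16, 12 and 9 in oxLDL, 12, 6 and 3 in LPS, and 19, 6 and 6 in oxLDL+LPS libraries, at 2 to 18 implied reads. Krt19 (chromosome 11, 100140810 to 100148665, minus strand) had 26, 37 and 17 in control, 20, 32 and 9 in oxLDL, 62, 26 and 17 in LPS, and 38, 18 and 8 in oxLDL+LPS libraries. Krt18 and Krt19 kept the order 1, 2, 3 in 2 of 4 groups each, and number 2 was highest in control libraries for both.

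**Figure D1:**
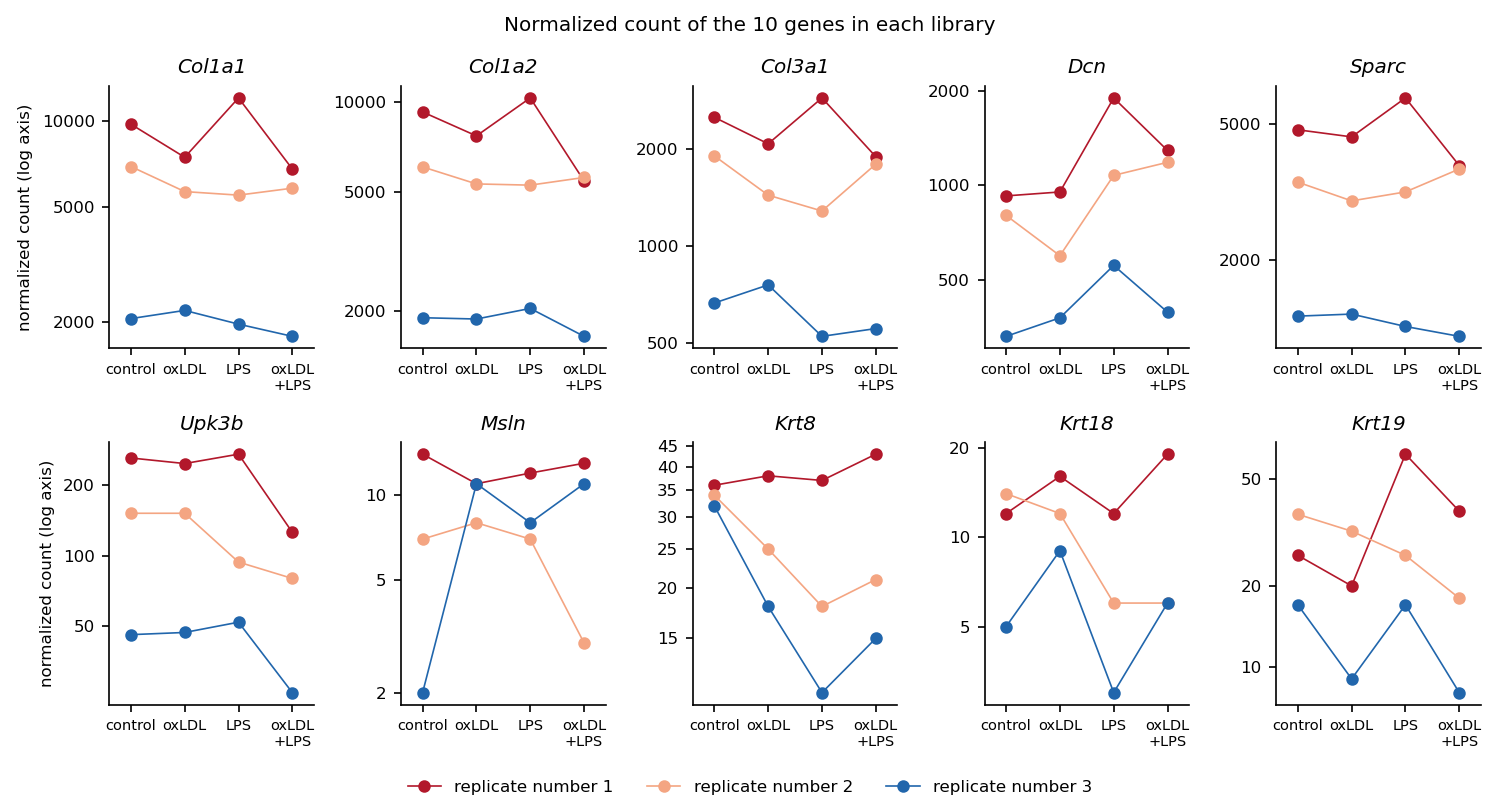
Each panel plots the normalized count of 1 gene (vertical, log axis with its own range) in the 4 groups (horizontal), 1 point per library, with lines joining libraries of the same replicate number. The number 3 libraries, in blue, lie below the number 1 libraries, in red, in every group for all genes but Msln, and Col1a1 runs from 1782 to 12012.

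Per kilobase of exon, the order of the 10 genes was Col1a1, Sparc, Col1a2, Col3a1, Dcn, Upk3b, Krt8, Krt19, Krt18 and Msln. The length joins all annotated exons of a gene, used or not, and was 6.56 kb for Col1a1, 12.43 kb for Col1a2 and 3.79 kb for Sparc. The order depends on these lengths, as the counts of the 2 type I chains were close. The median level over the 12 libraries was 877 normalized counts per kb for Col1a1, 862 for Sparc, 434 for Col1a2, 165 for Col3a1 and 148 for Dcn. It was 31.2 for Upk3b, 14.6 for Krt8, 12.4 for Krt19, 7.31 for Krt18 and 3.1 for Msln. On the same scale Lyz2 stood at 127000 and Csf1r at 1960. Neighbours in the order overlapped over the libraries: Col1a1 ranged from 272 to 1830 per kb and Sparc from 315 to 1570, so their medians do not separate them. Together the 10 genes made up 0.0241% to 0.161% of a library.

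The spread between replicate numbers exceeded that between groups for all 10 genes. This contrast is the one for which the genes were listed, so it is described and not tested. The sum of squares of log2(normalized count + 1) over the 12 libraries was split into a share between the 3 replicate numbers, a share between the 4 groups and a remainder. For Sparc 96.0% lay between the numbers and 0.739% between the groups, for Col1a1 94.9% and 1.97%, for Col1a2 94.4% and 2.79%, and for Col3a1 92.6% and 1.45%. Upk3b had 84.6% between the numbers and 12.9% between the groups. Dcn had the largest group share of the matrix genes, 18.7%, beside 76.6% between the numbers. The keratins were lower, with 59.8% between the numbers for Krt8, 59.7% for Krt18 and 60.4% for Krt19, and Msln had 36.2%, below its remainder of 52.9%. The median of the 10 genes was 80.6% between the numbers and 11.9% between the groups, whereas the medians over the 13465 genes past the filter were 11.3% and 70.3%. A share over 80% between the numbers was found for 5 members and for 2.59% of all genes. Within the 6 libraries without LPS the members' median share between numbers was 95.3%, beside 66.6% for all genes, and within the 6 with LPS it was 91.9% beside 61.8%. Without the number 3 libraries the members' median share between numbers was 54.5% and that between groups 22.9%, so the low number 3 libraries carried part of the gap.

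**Figure D2:**
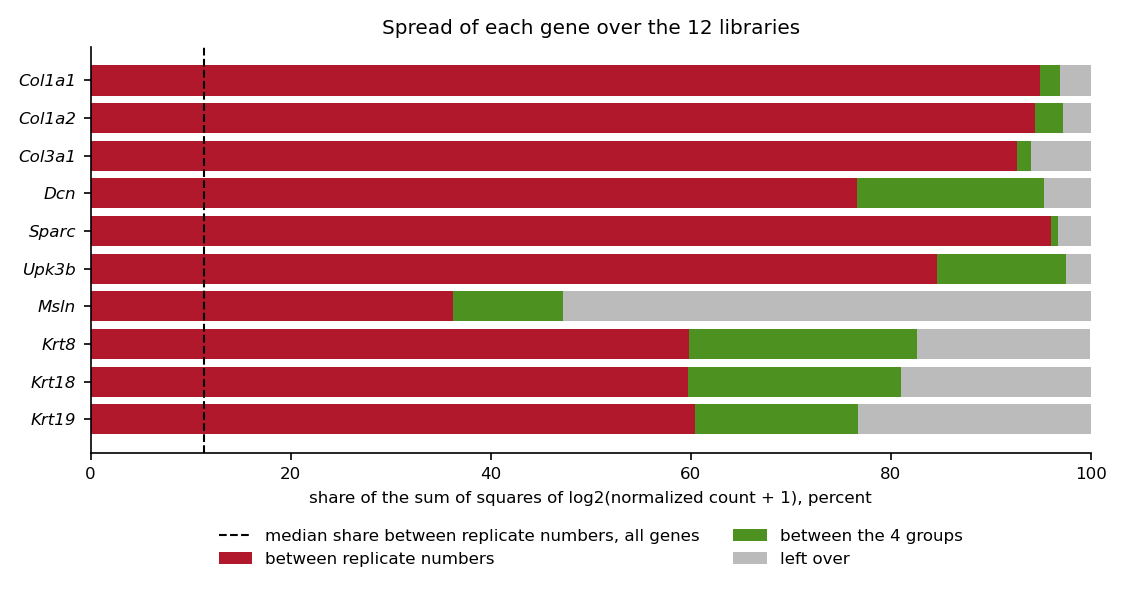
Stacked bars split the spread of each gene over 12 libraries into the percent between replicate numbers, between the 4 groups and left over, and the dashed line is the median share between replicate numbers over all genes, 11.3%. The red segment exceeds that line for all 10 genes and is shortest for Msln at 36.2%.

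On the log2 scale the mean of the 4 number 1 libraries exceeded that of the 4 number 3 libraries by 2.36 for Upk3b, 2.14 for Col1a1, 2.10 for Col1a2, 1.90 for Col3a1, 1.85 for Sparc and 1.57 for Dcn. The difference was 1.39 for Krt19, 1.27 for Krt18, 1.08 for Krt8 and 0.77 for Msln, beside a median of −0.04 over all genes. For 9 of the 10 members every number 1 library was above every number 3 library, which held for 5.3% of all genes. Most of the step lay between numbers 2 and 3 for the collagens: Col1a1 differed by 0.56 from number 1 to 2 and by 1.58 from number 2 to 3. The replicate numbers also differed in Xist and the Y-linked genes, and so did the number 1 libraries with and without LPS. The part of the mixture of male and female RNA in the members' levels was not tested. Fewer cells of a type and less RNA per cell cannot be told apart in such bulk libraries.

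The matrix genes kept close ratios to each other. The log2 ratio of Col1a1 to Col1a2 had an SD of 0.11 over the 12 libraries, while each gene alone had an SD of 0.97 and 0.96. The ratio of Col3a1 to Sparc had an SD of 0.14, that of Col1a2 to Sparc 0.17 and that of Col1a1 to Upk3b 0.37. Dcn was looser, with an SD of 0.47 against either type I chain and 0.74 against Upk3b. Ratios that involve Msln had the widest spread, 1.01 against Col1a1, at a level where a few reads change the ratio. These SDs describe 12 libraries that share 3 replicate numbers.

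Genes whose profile over the 12 libraries was most like that of the 5 matrix genes were Mxra8 (Pearson r = 0.995), Serpinh1 (r = 0.994), Aebp1 (r = 0.991), Col5a1 (r = 0.989) and Wisp1 (r = 0.985). Serpinh1 encodes the collagen chaperone HSP47 and Col5a1 a chain of the fibril-forming type V collagen. For the mesothelial and keratin genes as a set they were Fkbp14 (r = 0.972), Mrc2 (r = 0.97), Flnc (r = 0.963), and Tgfbr3 and Ptrf (both r = 0.961). Singly, Upk3b was most like Ptrf (r = 0.978) and Dcn most like C1s1 (r = 0.982) and Hspg2 (r = 0.978), which encodes the basement membrane proteoglycan perlecan. The closest gene was Smad6 for Krt8 (r = 0.923), Lamc1 for Krt18 (r = 0.935), Dtl for Krt19 (r = 0.935) and Slc4a8 for Msln (r = 0.849). These correlations describe libraries that share their replicate numbers and treatments.

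Most other markers of fibroblasts and of mesothelium were also higher in the number 1 than in the number 3 libraries. Of 22 further fibroblast and mural genes 18 passed the filter. In 14 of these every number 1 library was above every number 3 library, as in 5.3% of all genes, and the median log2 difference was 1.61. Their summed normalized count was 9488 to 14928 in number 1, 6848 to 8713 in number 2 and 2864 to 4488 in number 3 libraries. Pdgfra, the receptor that marks fibroblasts, had 712 to 4164, whereas Dpt, Pi16, Mfap5 and Tcf21 had at most 9 in any library and did not pass. Of 13 further mesothelial genes 11 passed and 8 were without overlap, with a median difference of 1.57. Wt1, a transcription factor of mesothelium, ranged from 76 to 366 and Lrrn4 from 32 to 337, while Muc16 had at most 1 and Calb2 at most 3. The mesothelial sum was 841 to 1221 in number 1, 845 to 1023 in number 2 and 338 to 466 in number 3 libraries, so numbers 1 and 2 overlapped. The genes whose libraries of numbers 1 and 3 overlapped include Pdgfrb with a log2 difference of 0.36, Fap with 0.21 and Cldn15 with 0.52.

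The following counts of genes without overlap also stand beside 5.3% of all genes. Relatives of Dcn and Sparc had 5 of 7 genes without overlap, with a median difference of 1.87 and with Bgn, the proteoglycan biglycan, at 451 to 2022. Enzymes that modify or process collagen had 10 of 22 and a median of 0.71. Epithelial keratins and junction genes other than the members had 0 of 5 without overlap and a median of 0.24. In that list Epcam had at most 1 in any library, Krt5 at most 1 and Krt20 was at 0 in all 12, while Cdh1 had 1 to 30. The macrophage markers had a median difference of −0.05 with 1 of 10 without overlap, and the large peritoneal macrophage markers −0.08 with 1 of 7. Endothelial markers had a median of 0.21 and 0 of 3, and no adipocyte marker passed the filter. Markers of B cells, T cells, neutrophils, eosinophils and mast cells had medians of −0.13, −0.04, −0.53, 0.04 and 0.47, each with 0 genes without overlap. The part of carried-over mesothelial cells or fibroblasts in the levels of the 10 genes was not tested, and neither was expression by the PMφs themselves.

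**Figure D3:**
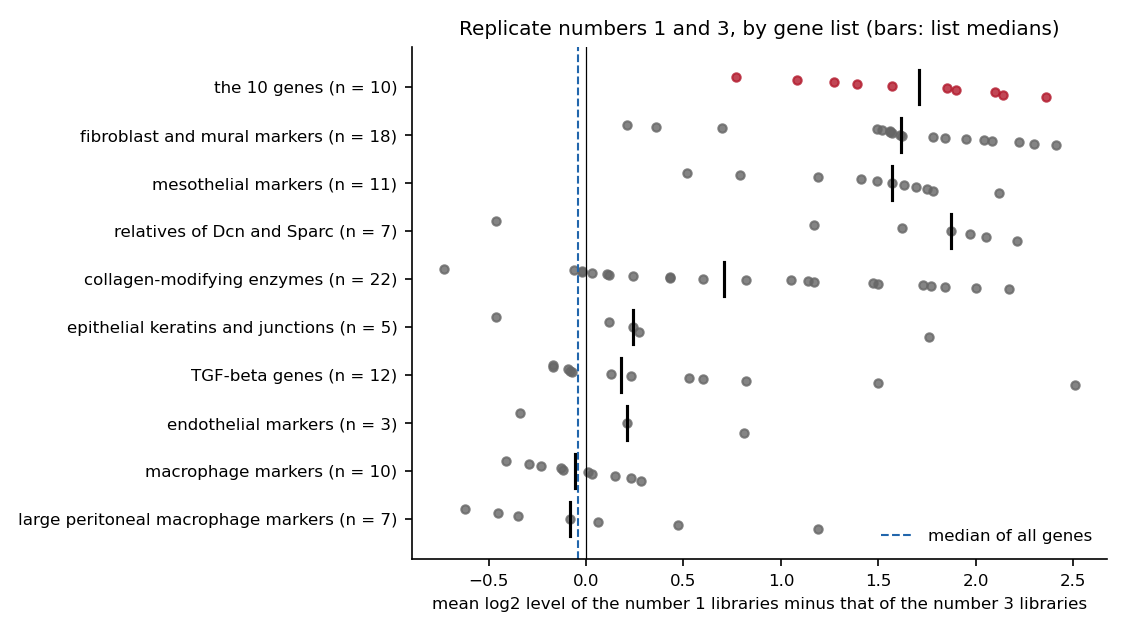
Each point is a gene that passed the filter, placed by the mean log2 level of the 4 number 1 libraries minus that of the 4 number 3 libraries (horizontal), in rows by gene list with the list median as a black bar. The 10 genes, in red, run from 0.77 to 2.36, the fibroblast and mesothelial lists centre on 1.61 and 1.57, and the macrophage list centres on −0.05, close to the dashed median of all genes at −0.04.

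Whether oxLDL accumulation alone changed these genes was asked by comparing oxLDL with control libraries. The matrix genes were slightly lower in oxLDL libraries, with log2 fold changes from −0.19 for Col1a1 to −0.06 for Dcn, and none passed. Upk3b stood at −0.02, Krt8 at −0.38, Krt19 at −0.47, Krt18 at 0.31 and Msln at 0.62. By limma 0 of the 10 members reached an adjusted p under 0.1 and 0 an unadjusted p under 0.05, where 0% of 12734 genes were called and 379 had an unadjusted p under 0.05. The standard errors of the members were 0.3 to 0.76. With the replicate number as a block 4.7% of genes were called and again 0 members, although the standard error of Col1a2 shrank from 0.68 to 0.05 and its adjusted p was 0.164. Within the numbers Col1a2 differed by −0.27, −0.19 and −0.01, and Col1a1 by −0.38, −0.29 and 0.09. Left without number 3, the blocked fit called 5 of the 9 members tested lower, which were Col1a1, Col1a2, Col3a1, Dcn and Sparc, beside 6.05% of all genes called lower. Blocked fits on 2 numbers keep 1 residual degree of freedom, so their p-values draw on the spread of other genes, here and below.

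LPS against control had the largest background of calls, 61.7% of 13006 genes without the block. Of the 9 members tested, all but Msln, 0 passed and 0 had an unadjusted p under 0.05, at standard errors of 0.42 to 0.74. Col1a1 had a log2 fold change of −0.03, Col1a2 of 0.02 and Sparc of 0.04, Col3a1 −0.24 and Upk3b −0.15. Dcn had the highest value, 0.74 with a standard error of 0.51 (limma adjusted p = 0.256). With the replicate block, where 68.7% of genes were called, 2 members passed. Dcn was higher with LPS, with a standard error of 0.13 and an adjusted p of 0.00205 from limma, and the 3 numbers differed by 1.04, 0.42 and 0.75. Without number 1 its difference was 0.59 and the adjusted p 0.00471, and over the 18 settings its adjusted p ran from 0.000548 to 0.707. Krt8 was lower with LPS, by a log2 fold change of −0.77 with a standard error of 0.34 and an adjusted p of 0.0849. Its unadjusted p from limma was 0.0566, not under 0.05, in this fit where most genes were called. Its numbers differed by 0.04, −0.88 and −1.46, and without number 2 or number 3 the adjusted p was 0.208 or 0.392. Without number 1 it was 0.0239, in a fit that called 66.9% of genes and 3 of 8 members, with Col3a1 lower (−0.46) beside Dcn and Krt8, and over the 18 settings it ran from 0.018 to 0.424.

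Libraries with LPS have larger totals, so these differences depend on the scale. When each library was set to the same total, the median of all genes moved from 0 to −0.48 in LPS against control and from −0.02 to −0.41 in oxLDL+LPS against oxLDL. Relative to that median, Dcn differed by 0.74 on the deposited scale and by 0.73 with equal totals, and Krt8 by −0.77 and −0.75. On the equal scale itself, the blocked fit called 7 of 9 members and 60.1% of all genes lower with LPS, with a median of −0.51 beside −0.48 for all genes. Dcn had 0.25 there and an adjusted p of 0.14.

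Among PMφs with oxLDL accumulation, oxLDL+LPS libraries were compared with oxLDL libraries. Upk3b had a log2 fold change of −0.91 and Dcn of 0.49, and the other 8 members lay between −0.39 and −0.02. Of 10 members 0 passed without the block and 0 had an unadjusted p under 0.05, where 54.5% of 12883 genes were called. With the block, where 63.4% were called, Upk3b was lower with a standard error of 0.15 and an adjusted p of 0.0026 from limma. Its numbers differed by −0.97, −0.92 and −0.83, and without number 1, where 62.3% of genes were called, the value was −0.87 with an adjusted p of 0.0107. Without number 2 or 3 Upk3b had −0.9 or −0.94, and with equal totals and the block its adjusted p was 0.000577. The adjusted p of Upk3b in this comparison ran from 0.000577 to 0.778 over 18 settings, since the fits without the block did not pass unless oxLDL number 3 was left out. Dcn was higher with the block, with a standard error of 0.17 and an adjusted p of 0.0469. Its numbers differed by 0.44, 0.99 and 0.06. Without number 1 Dcn had 0.52 with an adjusted p of 0.052 from limma, and without number 3 it had 0.71 with 0.0281. Without number 2 its adjusted p was 0.152, and the range over 18 settings was 0.0281 to 0.869. That fit without number 2 called 56% of genes and 4 of 8 members, Col1a2, Col3a1, Sparc and Upk3b, all lower.

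The effect of oxLDL accumulation in the presence of LPS was read from oxLDL+LPS against LPS libraries. Upk3b had the lowest log2 fold change, −0.77, followed by Krt19 at −0.73 and Col1a2 at −0.38, and Krt8 had the highest, 0.28. Of the 9 members tested, all but Krt18, 0 passed without the block and 0 had an unadjusted p under 0.05, where 0% of 12769 genes were called and 890 had an unadjusted p under 0.05. With the block 13.2% of genes and 1 member were called. Upk3b was lower, with a standard error of 0.19 and an adjusted p of 0.0475 from limma, and its numbers differed by −1.1, −0.23 and −0.97. Without number 1 its adjusted p was 0.369 and without number 3 it was 0.401, and the range over 18 settings was 1.9e-05 to 0.999. The matrix genes differed by −0.82 for Col1a1 and −0.92 for Col1a2 within number 1, but by 0.08 and 0.09 within number 2. Without number 2 the blocked fit called 23.9% of genes and 6 of 9 members, Upk3b and all 5 matrix genes, all lower with oxLDL. Krt19 was lower within all 3 numbers, by −0.69, −0.51 and −1.0, and had a blocked adjusted p of 0.142.

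A difference of the oxLDL effect with and without LPS was fitted as an interaction over all 12 libraries. Of the 10 members 0 passed with limma, without or with the block, and 0% of 13465 genes did in either fit, while 416 genes without and 967 with the block had an unadjusted p under 0.05. Upk3b had an interaction of −0.75 with an unadjusted blocked p of 0.0141 and an adjusted p of 0.655 from limma, the 1 member with an unadjusted p under 0.05. That block takes number 1 as the same pool with and without LPS. With the number blocked within each LPS state 0 of 10 members passed, and in the blocked fit without number 1 it was 0 of 8. The matrix genes had interactions between −0.24 and 0.15.

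**Figure D4:**
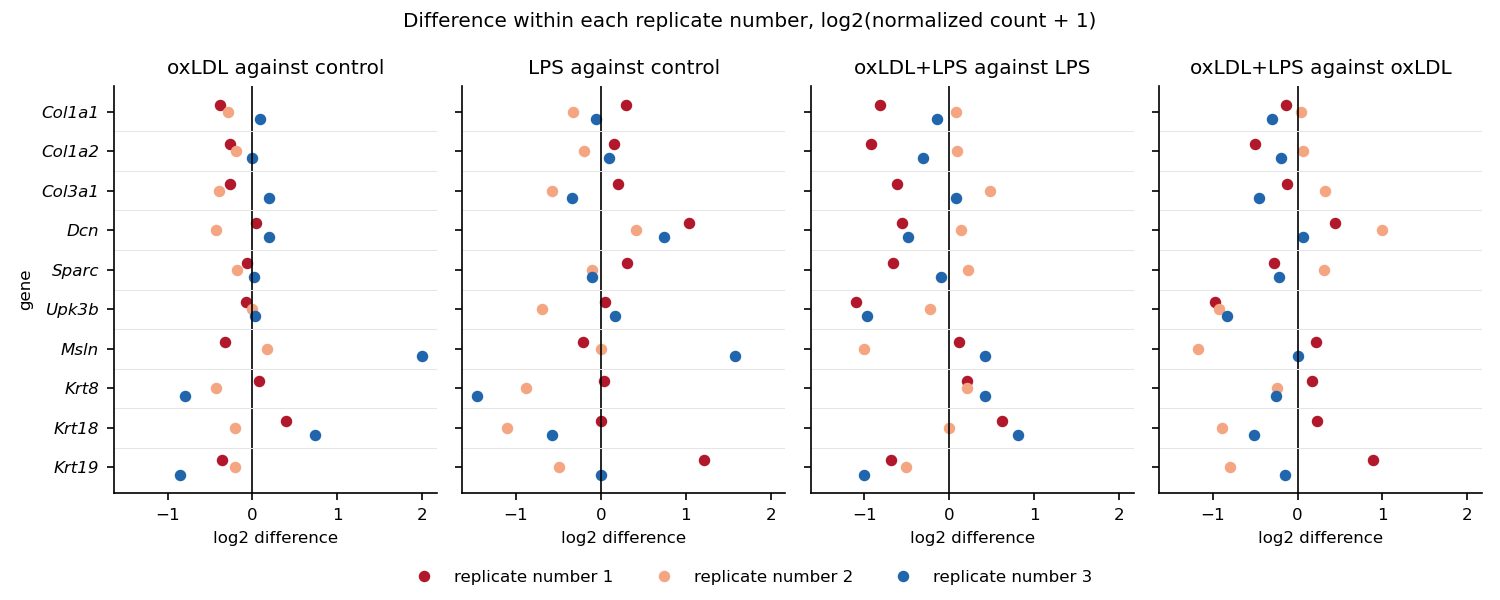
The 4 panels show, for each gene (vertical), the difference in log2(normalized count + 1) within replicate numbers 1, 2 and 3 (horizontal), 1 point per pair of libraries. In oxLDL+LPS against oxLDL the 3 points of Upk3b lie between −0.97 and −0.83, and in LPS against control those of Dcn lie between 0.42 and 1.04, whereas the type I collagens have points on both sides of 0 there.

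The genes that surround the members in collagen biology moved in both directions with LPS on the deposited scale, where the median of all genes was 0. Their counts stand beside 61.7% of all genes called in LPS against control without the block and 68.7% with it, and beside 54.5% and 63.4% in oxLDL+LPS against oxLDL. Among 21 tested enzymes that modify or process collagen, 4 were called higher and 4 lower in LPS against control by limma without the block. That is a smaller share than that of all genes. Here and below, list genes counted as rising or falling are the called ones. Lox, which cross-links collagen, rose from 79 to 341 in control to 786 to 1395 in LPS libraries, a log2 fold change of 2.51 ± 0.53 (SE). P4ha1, a subunit of prolyl 4-hydroxylase, rose by 1.68 ± 0.13, the procollagen C-proteinase Bmp1 by 1.45 ± 0.47 and the lysyl hydroxylase Plod3 by 1.12 ± 0.09. Plod1, another lysyl hydroxylase, had −0.67 ± 0.1, the prolyl 3-hydroxylase Leprel2 −0.65 ± 0.25, its relative Crtap −0.38 ± 0.13 and the collagen galactosyltransferase Colgalt1 −0.29 ± 0.11. The substrates Col1a1 and Col1a2 stood at −0.03 and 0.02 in the same fit. With the block 7 of the 21 enzymes were higher and 5 lower, and without number 1, where 66.9% of all genes were called, 5 of 20 were higher and 6 lower. In oxLDL+LPS against oxLDL 3 of 20 such enzymes rose, Lox by 2.36, P4ha1 by 1.56 and Plod3 by 0.96, and 3 fell, which were Plod1, Leprel2 and Crtap. The block called 5 higher and 5 lower there, with or without number 1.

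In the fibroblast and mural list 3 of 18 genes were called higher with LPS and 0 lower without the block, while by sign 10 were higher and 8 lower. Pdgfrb, a receptor of mural cells and fibroblasts, rose from 27 to 85 in control to 759 to 1037 in LPS libraries (log2 fold change 4.11 ± 0.37), and Fap rose by 2.25 ± 0.37 and Fbn1 by 1.45 ± 0.64. With the block 4 were higher, Pdgfra with 0.56 among them, and 2 were lower, Myl9 with −1.03 and Col12a1 with −0.52. Without number 1 it called 4 of 15 higher and 3 lower. In oxLDL+LPS against oxLDL 2 of 18 were called higher, Pdgfrb by 3.53 and Fap by 1.97, and 0 lower, with 9 higher and 9 lower by sign. The block called 5 higher and 2 lower there, and without number 1 it called 5 of 16 higher and 3 lower.

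The mesothelial list depended on the block. Of 10 mesothelial genes 1 was called higher with LPS, the retinoic acid enzyme Aldh1a2 by 1.08 ± 0.41, and 0 were called lower. By sign 2 of the 10 were higher and 8 lower, and their median was −0.46 beside 0 for all genes. With the block Aldh1a2 was again higher and 4 genes were lower, Lrrn4 with −1.33, the R-spondin Rspo1 with −1.12, the transcription factor Bnc1 with −0.98 and the uroplakin Upk1b with −0.89. Without number 1, 7 genes were tested, of which 1 was higher and 4 lower. In oxLDL+LPS against oxLDL 1 of 10 mesothelial genes was called lower, Rspo1 with −1.4 ± 0.53. By sign 9 of the 10 were lower and 1 higher, and their median was −0.64 beside −0.02 for all genes. There the block called 1 higher and 5 lower, Gpm6a with −1.05 and Lrrn4 with −1.41 among them, and without number 1 it called 1 of 7 higher and 1 lower, Lrrn4.

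Of the epithelial list 2 of 3 tested genes fell with LPS, without and with the block, the junction genes Jup with −1.24 ± 0.14 and Pkp2 with −1.75 ± 0.38. Both fell in oxLDL+LPS against oxLDL too, with −1.45 and −1.13. Fstl1 was the 1 of 5 relatives of Dcn and Sparc called with LPS, higher by 0.76 ± 0.27, and with the block the proteoglycan Fmod was lower with −0.87. Of 6 relatives 0 passed in oxLDL+LPS against oxLDL without the block, and with it Fstl1 was higher and Fmod lower. Without number 1 the block also called the junction gene Ocln lower in both comparisons, and it called Fstl1 higher in both.

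Of 12 TGF-β ligands, receptors and early targets, 3 rose and 3 fell with LPS. Skil, a co-repressor of SMAD proteins, rose by 1.32 ± 0.12, the signal transducer Smad2 by 0.87 ± 0.09 and the ligand Tgfb1 by 0.55 ± 0.23. The receptors Tgfbr1 and Tgfbr2 had −1.01 ± 0.2 and −1.29 ± 0.1, and the inhibitor Smad7 −0.76 ± 0.28. With the block 4 were higher and 5 lower, with the ligand Tgfb3 at −0.69, and without number 1 it was 4 and 6. In oxLDL+LPS against oxLDL 2 rose and 3 fell without the block, and 3 were higher and 5 lower with it, or 4 and 6 without number 1.

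In oxLDL against control and in oxLDL+LPS against LPS 0 genes of these 6 lists passed without the block, where 0% of all genes did. With the block the first comparison called Fstl1, with −0.2, beside 4.7% of all genes. In the second, where 13.2% of all genes were called, Fbn1, Pdgfrb and Col6a3 of the fibroblast list were lower with oxLDL, by log2 fold changes of −0.58, −0.48 and −0.42. Lower there were also Bmp1 with −0.52 and Lox with −0.27, Aldh1a2 with −0.55, Fstl1 with −0.42, Jup with −0.37 and Skil with −0.25, while Tgfbi had 0.59.

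Markers of other cells were called with LPS as well, here without the block and beside the same shares of all genes. Of 10 macrophage markers 4 were called higher in LPS against control, the LPS co-receptor Cd14 by 3.78, the Fc receptor Fcgr1 by 2.81, Emr1 (F4/80) by 1.53 and Mertk by 1.31. Of the 10, 0 were called lower, and by sign 7 were higher and 3 lower. Of 7 markers of large peritoneal macrophages Timd4 rose by 4.46, Selp by 1.06 and Prg4 by 1.0, and Naip1 fell, with −2.62. Single genes were called in other lists, Cdh5 with 2.24 and Kdr with 0.54 in the endothelial, Lck with 3.2 in the T cell, S100a8 with 1.65 in the neutrophil, Siglecf with −1.63 in the eosinophil and Kit with 1.44 in the mast cell list. Of these lists 3 of 10 endothelial, 2 of 7 T cell, 1 of 8 neutrophil, 1 of 6 eosinophil and 4 of 7 mast cell genes were tested. Cd3e had at most 2, S100a9 and Epx had at most 1 and Ly6g had 0 in any library, so Lck, S100a8 and Siglecf do not stand for their cell types. In the mast cell list Cpa3 had 10 to 40 and Tpsb2 7 to 44, whereas Mcpt4 had at most 3. In the endothelial list Esam had 13 to 61, whereas Cldn5 had 0 in any library. Whether Kit, Cdh5 and Kdr stand for their cell types was not tested. The same 4 macrophage markers rose in oxLDL+LPS against oxLDL, where Mrc1 fell, with −0.27. Timd4, Prg4 and Icam2 rose there and Naip1 fell, and Cdh5, Kdr, Lck and S100a8 were higher and Siglecf lower. The part of these genes' cells in the members' values was not tested.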

How the data were processed

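RNA of 12 PMφ cultures was sequenced as poly(A) libraries made with a directional kit. Per the labels and the study's methods, the authors trimmed reads with Trimmomatic 0.32, aligned them to GRCm38 with STAR 2.5.1b and used featureCounts to assign reads in exons to GENCODE genes. Whether counting used the strand is not given in the sources used here. The deposited signal consists of whole numbers. In each library they are spaced as read counts would be after scaling by a single factor and rounding, and they are called normalized counts here. The factors were 0.7635 to 1.4128 and were read from that spacing after a check on simulated data. Because the reads were not recovered, tests for raw counts were not run. A spreadsheet had turned 25 symbols into dates, at most 0.165% of a library, and they were left out of the tests.

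The 10 genes and all gene lists were chosen with earlier results of these data known. Groups were compared with limma 3.58.1 in R 4.3.3 (lmFit and eBayes with a variance trend, tested on simulated data) on the log2 scale after adding a pseudocount of 1 to each normalized count, which makes differences of low genes smaller in size. Genes with at least 10 in at least 3 libraries of the fit were tested, p-values were adjusted over all of them by Benjamini-Hochberg, and an adjusted p under 0.1 was called. Each comparison was fitted on its own 6 libraries and the interaction on all 12. Members, the 5 genes with the most similar profile, and genes of the lists called without the block (up to 5 by smallest p per list and direction) were named. Other list genes, named for their levels or for blocked calls, were chosen after their values were seen. A further gene of the lists is not reported here.

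The labels give all groups the numbers 1 to 3. Over 13465 genes, deviations from the group means correlated at 0.234 to 0.657 between same-numbered libraries, and 18 of 18 pairs correlated best with their own number. The numbers therefore mark libraries that go together, but number 1 was not 1 kind of pool with and without LPS. Its correlations across LPS were the lowest, 0.234 to 0.34. Blocked values of the members and of the collagen, fibroblast, mesothelial, epithelial and TGF-β lists stand beside the unblocked ones. Alternatives were the block, other filters and pseudocounts, equal library totals, all 12 libraries in 1 fit and each library left out. For the interaction a block on the number within each LPS state was fitted too. The blocked fits without a number and with equal totals were chosen after seeing the data. Positions came from a GENCODE annotation of GRCm38 by symbol, a later release than the authors'. Figures were drawn with matplotlib 3.10.9.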

Additional observations from a re-analysis of the deposited data

How the results depend on the processing

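The number of reads limits Msln and Krt18, with 2 to 18 implied reads each, and 3 libraries per group limit the rest. Without the replicate block 0 members were called in each of the 5 comparisons, and no other filter, pseudocount or pooled fit changed that. With the replicate block 2 members were called in LPS against control (Dcn, Krt8), 1 in oxLDL+LPS against LPS (Upk3b) and 2 in oxLDL+LPS against oxLDL (Dcn, Upk3b), and no other call changed. With each library left out in turn the count ran from 0 to 1 in LPS against control, where Krt8 was called without LPS number 1 (adjusted p = 0.018 from limma) and Dcn without LPS number 3 (0.0774). It ran from 0 to 1 in oxLDL+LPS against oxLDL, where Upk3b was called without oxLDL number 3 (0.0981) and Dcn without oxLDL+LPS number 3 (0.0577). Equal totals gave 1 member in LPS against control, Krt8. Together with the replicate block they gave 7 members in LPS against control, 1 in oxLDL+LPS against LPS and 5 in oxLDL+LPS against oxLDL. In the first of these fits 60.1% of all genes were called lower, and the shares of all genes in the others are not given here. The median of all genes fell with LPS on that scale. The block without number 1, 2 or 3 called 3, 1 and 1 members in LPS against control, 2, 4 and 2 in oxLDL+LPS against oxLDL, 6 in oxLDL+LPS against LPS without number 2 and 5 in oxLDL against control without number 3. Of all genes, 66.9% were called in LPS against control without number 1. In oxLDL+LPS against oxLDL it was 62.3% without number 1 and 56% without number 2. The share was 23.9% in oxLDL+LPS against LPS without number 2, and 6.05% were called lower in oxLDL against control without number 3. Shares for the other fits without a number are not given here. The cause of these changes in calls was not tested. The members' median share of variance between numbers was 54.5% without replicate number 3, 83.7% without number 1 and 86.0% without number 2, and the share between groups 22.9%, 12% and 12.8%. It was 1.24% between groups within the libraries without LPS. Of 834 alternative values for 48 fold changes of single members, 123 had the other sign, 96 of them with a library left out, and the largest such fold change was 0.62 in size as reported. Left-out libraries moved Dcn in LPS against control from 0.28 to 1.19 and Upk3b in oxLDL+LPS against oxLDL from −1.58 to −0.27 without a change of sign.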
